A study of Homo sapiens with 6 samples.

Results

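The zinc response genes described here are 10 genes measured in A549, a human cell line established from a lung adenocarcinoma: the metallothioneins MT2A, MT1X, MT1E, MT1F, MT1G and MT1M, the transcription factor MTF1, the zinc exporter SLC30A1 and the zinc importers SLC39A10 and SLC39A6. Each was found as the transcript cluster (a gene-level probe set of a whole-transcript Affymetrix array) annotated to that 1 symbol, and each of the 10 had exactly 1 such cluster, out of 67528 clusters and 22411 named genes. The list was selected on the difference in log2 signal between the 2 groups of arrays, already known for some of its genes, so the values in that contrast are given as a description and are not tested. The study asked what the long noncoding RNA CONCR, which carries the gene symbol DDX11-AS1, does in sister chromatid cohesion.

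In 3 arrays the cells had been transfected with a pool of siRNAs against CONCR, and in 3 arrays with a control siRNA. Both groups were of the same unmodified line in medium with 10% serum, and both received 40 nM siRNA in each of a pair of transfections 24 h apart. The siRNAs against CONCR were given together, so the effect of each cannot be told apart from that of the other. Nothing states whether each replicate was a culture of its own, so p-values and errors cover no more than the spread among these arrays, and that spread may be technical.

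Zinc in the cytosol is held low by a small set of proteins. Metallothioneins are short, cysteine-rich proteins that bind zinc and copper. MTF1 is a zinc finger transcription factor that senses free zinc and binds metal response elements, short DNA motifs in the promoters of metallothionein genes and of SLC30A1. SLC30 transporters move zinc out of the cytosol, into organelles or across the plasma membrane, and SLC39 transporters move it into the cytosol. SLC39A10 is known from work in mouse and zebrafish as a gene that MTF1 represses, and its protein forms a heteromer with that of SLC39A6.

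RefSeq promoter windows (GRCh38.p14, 250 bases before to 50 after the annotated start) were at hand for 6 of the 10 genes, MT2A, MT1X, MTF1, SLC30A1, SLC39A10 and SLC39A6. They were searched on both strands for the core of the metal response element, TGCACNC or TGCGCNC, and no 2 matches overlapped. Of all 35116 windows in the table, 29.6% held at least 1 match, 8.6% at least 2, 0.601% at least 4 and 0.0199% at least 8. The windows printed here are those of MT2A, which had the largest difference of the 6 metallothioneins among the 10 genes, of a metallothionein of the same gene cluster whose arrays overlapped between groups, of the exporter and of the importer that was lower, each 5′ to 3′ on the gene's strand with the matches in capitals.
MT2A: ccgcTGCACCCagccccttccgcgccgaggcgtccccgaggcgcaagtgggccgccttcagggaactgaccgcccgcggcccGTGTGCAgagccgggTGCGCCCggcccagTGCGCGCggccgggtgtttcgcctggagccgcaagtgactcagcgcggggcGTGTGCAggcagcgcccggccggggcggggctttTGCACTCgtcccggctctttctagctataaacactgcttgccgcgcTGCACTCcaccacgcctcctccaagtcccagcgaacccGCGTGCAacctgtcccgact
MT1X: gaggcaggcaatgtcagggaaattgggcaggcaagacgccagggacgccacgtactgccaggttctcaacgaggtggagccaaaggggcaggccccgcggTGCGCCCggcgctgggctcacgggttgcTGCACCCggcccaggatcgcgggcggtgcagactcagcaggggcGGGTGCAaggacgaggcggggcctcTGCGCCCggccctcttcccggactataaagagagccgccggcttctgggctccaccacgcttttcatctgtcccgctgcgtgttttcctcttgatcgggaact
SLC30A1: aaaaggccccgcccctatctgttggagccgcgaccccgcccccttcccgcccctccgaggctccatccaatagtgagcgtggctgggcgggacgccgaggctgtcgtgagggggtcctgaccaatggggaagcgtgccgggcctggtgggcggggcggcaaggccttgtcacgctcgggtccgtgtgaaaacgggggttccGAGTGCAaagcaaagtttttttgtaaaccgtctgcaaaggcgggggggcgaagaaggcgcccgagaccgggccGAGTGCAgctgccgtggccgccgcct
SLC39A10: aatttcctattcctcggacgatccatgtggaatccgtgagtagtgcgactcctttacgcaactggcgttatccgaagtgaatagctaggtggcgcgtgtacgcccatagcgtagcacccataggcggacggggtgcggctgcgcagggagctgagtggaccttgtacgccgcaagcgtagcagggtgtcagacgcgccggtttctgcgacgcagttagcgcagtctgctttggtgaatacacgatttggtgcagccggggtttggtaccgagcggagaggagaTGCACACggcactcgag
The MT2A window (chr16:56608334-56608633, plus strand) held 8 matches, 5 on the gene's strand and 3 on the other. The MT1X window (chr16:56682220-56682519, plus strand) held 4. The SLC30A1 window (chr1:211579112-211579411, minus strand) held 2, the first from 49 to 43 bases before the start and the second from 25 to 31 bases after it. SLC39A10 had a pair of annotated starts. The window printed (chr2:195656976-195657275, plus strand) held 1 match, from 34 to 40 bases after the start, and the other window held 0. SLC39A6 had 1 match and MTF1 had 0. A match is a description of the letters and shows no binding.

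MT2A, the main metallothionein of most human tissues, had log2 signals of 10.52, 10.45 and 10.40 with CONCR siRNA and of 9.97, 9.92 and 9.81 with control siRNA. All 3 arrays of the CONCR group lay above all 3 of the control group, with 0.43 log2 units between the lowest of the former and the highest of the latter. The means were 10.46 ± 0.06 and 9.90 ± 0.08 (SD, n = 3), a log2 difference of 0.56 (SE 0.06, 95% confidence interval 0.40 to 0.71), which is 1.47-fold higher on the scale of the deposited values. MT2A was the 1 member of the 10 past an adjusted p of 0.05 in the limma fit over all 32540 tested clusters, where 1.88% of clusters passed and 0.384% passed as higher. Nothing is read from that count, since the members were chosen with this contrast known. MT2A did not pass without CONCR siRNA replicate 1, CONCR siRNA replicate 2 or control siRNA replicate 2, where the difference was 0.53, 0.56 and 0.57. Arrays measure RNA in bulk, so a change in the share of cells that express a gene and a change in RNA per cell cannot be told apart.

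**Figure D1:**
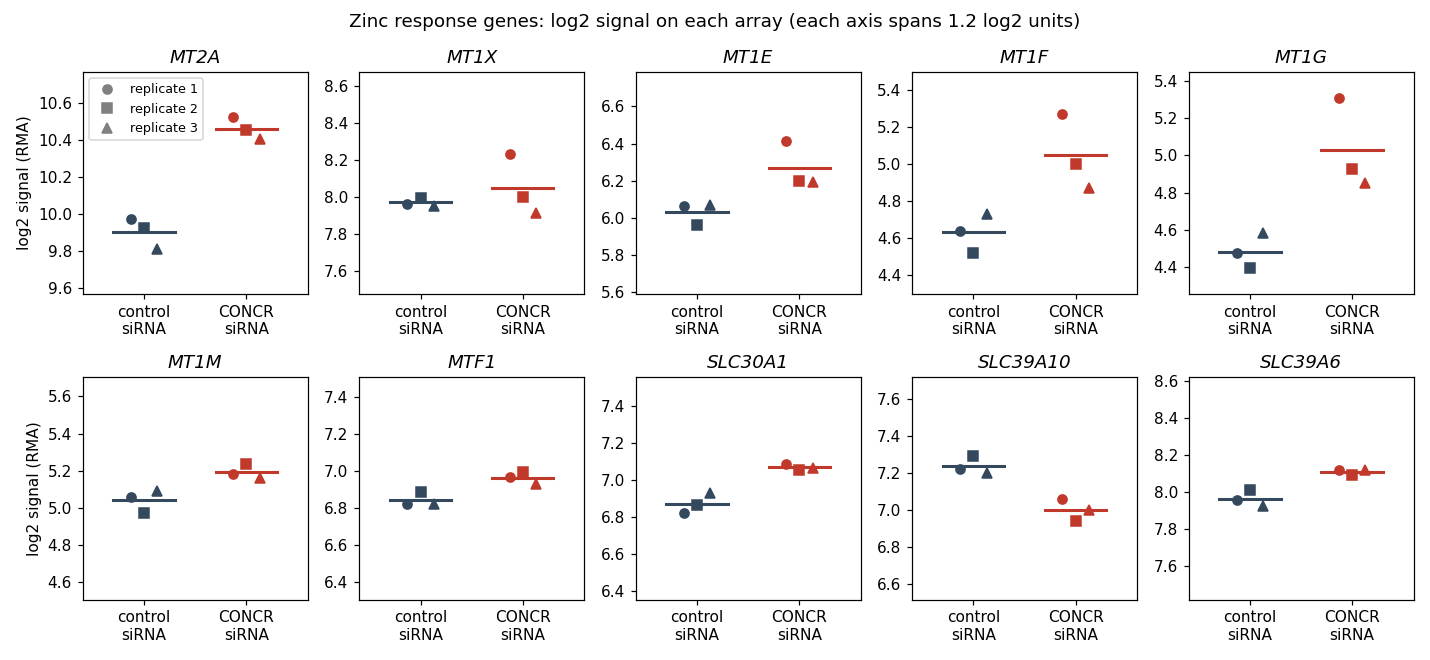
Log2 signal (vertical axis, RMA values, each axis spanning 1.2 log2 units) of the 10 genes on each array. Points are single arrays with a shape for each replicate number, horizontal lines are group means, control siRNA is dark and CONCR siRNA red. The groups overlap for MT1X alone, and SLC39A10 is the 1 gene that is lower with CONCR siRNA.

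MT1G, an inducible metallothionein, differed about as much as MT2A but with a wider spread. With CONCR siRNA its log2 signals were 5.31, 4.93 and 4.85, and with control siRNA they were 4.47, 4.39 and 4.58. The groups did not overlap, and replicate 1 stood highest in the CONCR group. The difference was 0.55 (SE 0.12, 95% confidence interval 0.25 to 0.84), or 1.46-fold. Without CONCR siRNA replicate 1 it was 0.41.

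MT1F, another metallothionein of the cluster, had signals of 5.27, 5.00 and 4.87 with CONCR siRNA and of 4.64, 4.52 and 4.73 with control siRNA. Its groups did not overlap either, and replicate 1 was again the highest. The difference was 0.42 (SE 0.11, 95% confidence interval 0.15 to 0.68). The control means of MT1G (4.48) and MT1F (4.63) lay close above the log2 signal of 4 that the filter required on 3 arrays, so these 2 genes were measured near its lower end. At such signals RMA values tend to understate a change, and RNA of a near copy may be picked up as well. Neither was tested for these 2 genes.

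MT1E was at 6.42, 6.20 and 6.19 with CONCR siRNA and at 6.06, 5.96 and 6.07 with control siRNA. The groups were separated by 0.13 log2 units, and the difference of their means was 0.24 (SE 0.08), 1.18-fold. MT1M was at 5.18, 5.24 and 5.16 against 5.06, 4.97 and 5.09. Its groups lay only 0.07 apart, with a difference of 0.15 (SE 0.06), and it was the 1 metallothionein of the 6 in which replicate 1 was not the highest array with CONCR siRNA.

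MT1X had signals of 8.23, 7.999 and 7.92 with CONCR siRNA and of 7.96, 7.997 and 7.95 with control siRNA. The groups overlapped, since replicate 3 of the CONCR group lay below every control array. The difference of 0.08 (SE 0.09, 95% confidence interval -0.13 to 0.28) rested on CONCR siRNA replicate 1 and was -0.014 without it. MT1X had the smallest and MT2A the largest of the 6 differences. Of the 6, MT2A and MT1X alone had a promoter window at hand. Among other metallothioneins the windows of MT1H, MT1B and MT4 held 8, 3 and 3 matches, at differences of 0.45, 0.38 and 0.16. Whether the number of matches in a promoter window goes with the difference was not tested.

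The level of the metallothioneins as a group differed between the arrays given CONCR siRNA. The mean over the 6 genes, set against each gene's control mean, was 0.48 log2 units on replicate 1, 0.29 on replicate 2 and 0.22 on replicate 3, and it ranged from -0.05 to 0.03 on the control arrays. Replicate 1 was the highest of its group for 5 of the 6. The median difference of the 6 genes was 0.33, beside 0.01 over all tested clusters, and 5 of the 6 had groups that did not overlap with CONCR siRNA higher, which held for 9.00% of all tested clusters.

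Other metallothioneins were read from a list of 13 further genes and pseudogenes, among them MT1HL1, which lies on another chromosome. Of these, 10 were tested, 10 had a positive difference, and none passed the limma test over all clusters, where 1.88% passed. MT1L, a pseudogene, was at 0.38 (SE 0.07, limma adjusted p = 0.057) and the pseudogene MT1DP at 0.46 (SE 0.09, limma adjusted p = 0.066), each with groups that did not overlap. MT1L had signals of 6.26, 6.20 and 6.12 with CONCR siRNA and of 5.77, 5.73 and 5.93 with control siRNA. The pseudogene MT1CP, named after its value was seen, had the largest difference of the list at 0.68 (SE 0.15, limma adjusted p = 0.087). The list median was 0.38, and groups did not overlap for 7 of the 10, all higher, beside 9.00% of all tested clusters. MT3, the metallothionein known from brain, was at 0.09 and MT4, known from squamous epithelium, at 0.16, both with overlapping groups, as was MT1HL1 at 0.22. These 3 were also named after their values were seen.

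Together 16 metallothionein genes and pseudogenes were tested, all 16 with a positive difference, 12 with groups that did not overlap, and 1 called, beside 17255 positive differences among all 32540 tested clusters, 9.00% of them higher without overlap and 0.384% called higher. MT1B, 1 of the 16, was at 4.40, 4.32 and 4.06 with CONCR siRNA and at 3.65, 4.03 and 3.95 with control siRNA. It met the filter at a log2 signal of 4 only through its CONCR arrays, which favoured a positive difference. Nothing is read from its place in these counts or in those of the list above. The 16 are not separate observations. The MT1 genes and pseudogenes are near copies of one another, and a probe set of one may pick up the RNA of another. How far the clusters share signal was not tested.

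The tested metallothionein genes and pseudogenes other than MT1HL1 lie side by side on chromosome 16, and the genes on both sides of them were read in the same way. Of the 5 measured protein-coding genes before and the 5 after the locus, none passed the limma test, beside 1.88% of all tested clusters. Of these neighbours 5 had a positive and 5 a negative difference, and their median was 0.00. Groups did not overlap for 4 that were lower (NUDT21, BBS2, HERPUD1 and CPNE2) and 1 that was higher (CES1), beside 10.1% and 9.00% of all tested clusters. On the MT4 side, BBS2, a subunit of the ciliary BBSome, was at -0.20 (SE 0.06, limma adjusted p = 0.19). On the MT1X side, the nucleoporin gene NUP93 was at 0.01 (SE 0.05, limma adjusted p = 0.96), and HERPUD1, of endoplasmic reticulum protein degradation, was at -0.36 (SE 0.08, limma adjusted p = 0.11). The neighbours spanned -0.36 to 0.13, while 6 of the 15 tested clusters of the locus were at 0.44 or more, MT2A, MT1JP, MT1DP, MT1CP, MT1G and MT1H.

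**Figure D2:**
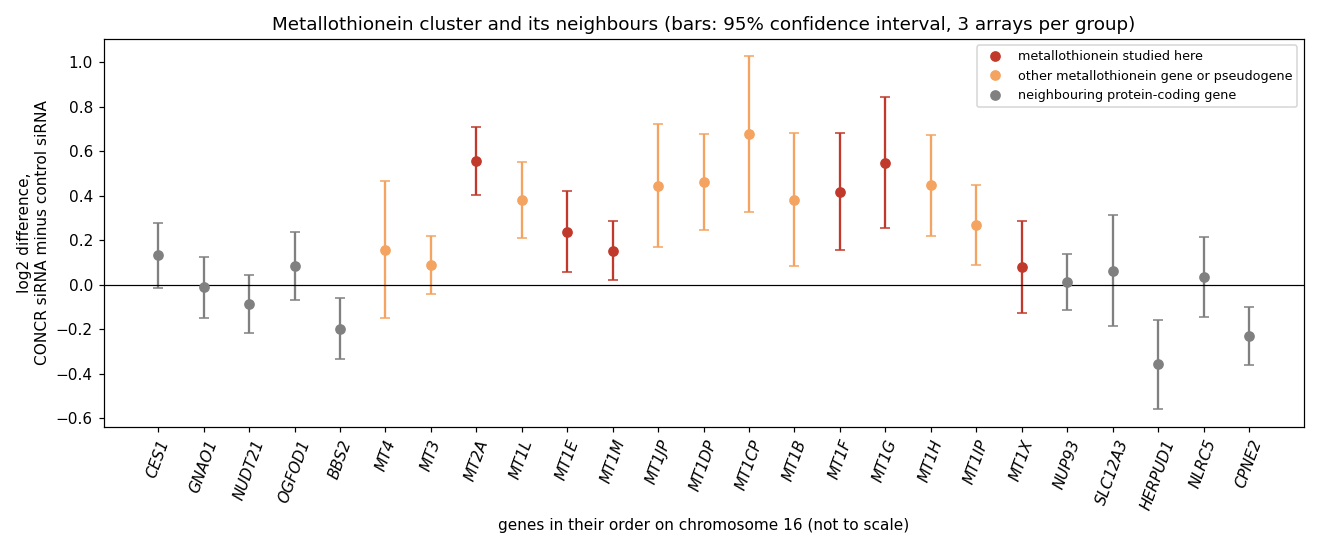
Log2 difference, CONCR siRNA minus control siRNA (vertical axis), of the metallothionein genes and of 5 measured protein-coding neighbours on each side, in their order on chromosome 16 in RefSeq GRCh38.p14 (horizontal axis, not to scale). Points are estimates with 95% confidence intervals from 3 arrays per group. The estimates of the locus all lie above 0, from 0.08 for MT1X to 0.68 for MT1CP, and the intervals of MT4, MT3 and MT1X include 0. The neighbours lie from -0.36 to 0.13, with CES1 (0.13) above MT3 (0.09) and MT1X.

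MTF1, the zinc sensor itself, had signals of 6.97, 6.99 and 6.93 with CONCR siRNA and of 6.82, 6.89 and 6.82 with control siRNA. The groups did not overlap but lay only 0.04 log2 units apart. The difference was 0.12 (SE 0.05, 95% confidence interval 0.00 to 0.24), or 1.09-fold. The array reads MTF1 RNA and gives no information on MTF1 protein, its place in the cell or its zinc loading.

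SLC30A1, the exporter at the plasma membrane and a direct MTF1 target in mouse, was at 7.09, 7.06 and 7.07 with CONCR siRNA and at 6.82, 6.87 and 6.93 with control siRNA. All 3 arrays with CONCR siRNA were higher, by at least 0.12 log2 units, and they lay close together (SD 0.02, against 0.06 in the control group). The difference was 0.20 (SE 0.05, 95% confidence interval 0.07 to 0.32), 1.15-fold. SLC30A1 was on the same side as MT2A, with a smaller difference on the log2 scale.

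The importers lay on opposite sides. SLC39A10 was at 7.06, 6.94 and 7.00 with CONCR siRNA and at 7.22, 7.29 and 7.20 with control siRNA. Every array with CONCR siRNA was below every control array, by at least 0.14 log2 units. The difference was -0.24 (SE 0.06, 95% confidence interval -0.37 to -0.10), 1.18-fold lower.

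SLC39A6 was at 8.12, 8.09 and 8.12 with CONCR siRNA and at 7.96, 8.01 and 7.92 with control siRNA. Here every array with CONCR siRNA was above every control array, by at least 0.08. The difference was 0.14 (SE 0.05, 95% confidence interval 0.02 to 0.26), 1.11-fold higher. The partners of the ZIP6 and ZIP10 heteromer had differences of opposite sign. Over the 10 genes 9 differences were positive and 1 negative. Groups did not overlap for 8 genes that were higher and 1 that was lower, beside 9.00% and 10.1% of all tested clusters (19.1% in either direction).

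The other zinc transporters of both families were read in the same way. Among 9 further SLC30 genes 7 were tested and 1 fell. SLC30A7, which loads zinc into the Golgi apparatus, was at 6.65, 6.58 and 6.59 with CONCR siRNA and at 7.21, 7.29 and 7.30 with control siRNA. The groups were far apart, and SLC30A7 fell by 0.66 on the log2 scale (SE 0.05, 1.58-fold lower, limma adjusted p = 0.0038). The share of all tested clusters called lower was 1.50%. The call of SLC30A7 held without each array in turn, with a limma adjusted p of at most 0.034, and was lost with the replicate number as a block (limma adjusted p = 0.068). The other 6 did not pass, SLC30A5, SLC30A6 and SLC30A9 among them, at 0.11, -0.01 and -0.01. The median of the 7 was -0.01.

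Among 12 further SLC39 genes 10 were tested and 1 fell, beside 1.50% of all tested clusters called lower. SLC39A11, an importer found on internal membranes, was at 6.64, 6.58 and 6.64 with CONCR siRNA and at 7.00, 7.07 and 6.98 with control siRNA. The groups did not overlap, and SLC39A11 fell by 0.40 (SE 0.05, 1.32-fold lower, limma adjusted p = 0.018). Leaving out any array other than control siRNA replicate 1 ended this call, with limma adjusted p up to 0.096. The call was also lost with the replicate number as a block (limma adjusted p = 0.15) and without a filter (limma adjusted p = 0.065). SLC39A14, which carries zinc, iron and manganese, was at 8.01, 8.06 and 8.05 with CONCR siRNA and at 7.81, 7.82 and 7.75 in the control group (log2 difference 0.25, SE 0.05, limma adjusted p = 0.069), and is named although it did not pass and was picked after its value was seen. The median of the 10 was 0.05.

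**Figure D3:**
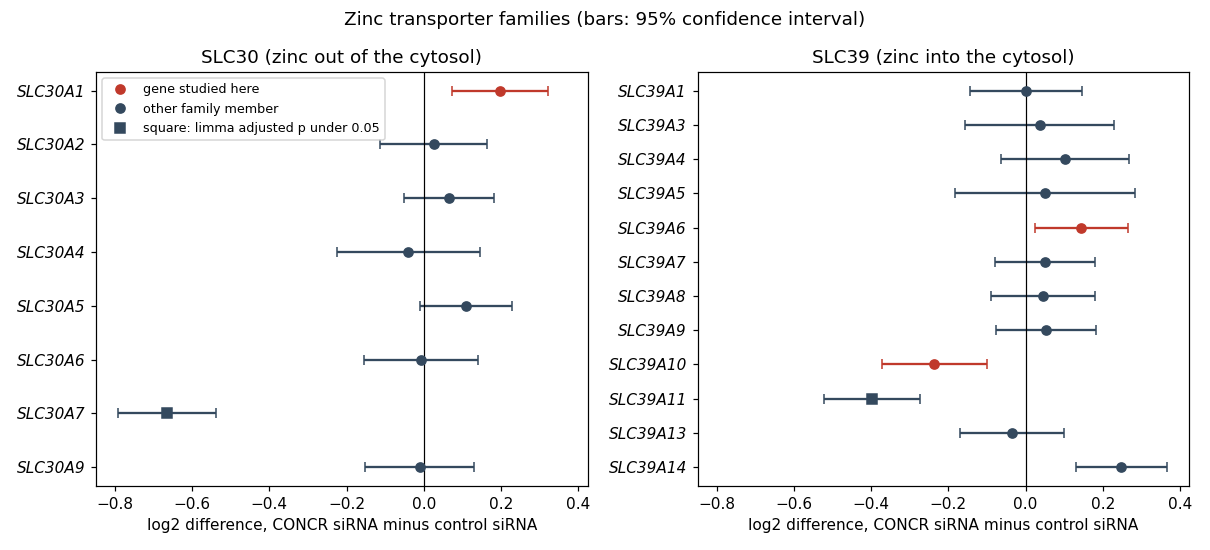
Log2 difference, CONCR siRNA minus control siRNA (horizontal axis), of the tested SLC30 genes (left) and SLC39 genes (right), with 95% confidence intervals from 3 arrays per group. Squares mark a limma adjusted p under 0.05. SLC30A7 and SLC39A11 are the squares, both lower, while SLC30A1 (0.20) and SLC39A6 (0.14) lie above 0 and SLC39A10 (-0.24) below.

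Other genes reported to depend on MTF1, some of them in mouse only, were listed as 7. Of these 6 were tested and none passed, beside 1.88% of all tested clusters. GCLC, the catalytic subunit of glutamate-cysteine ligase in glutathione synthesis, was at -0.26 (SE 0.05, limma adjusted p = 0.054) and NDRG1 at -0.17 (SE 0.05, limma adjusted p = 0.23). CSRP1, a LIM domain protein, lay the other way at 0.18 (SE 0.06, limma adjusted p = 0.24) and is named after its value was seen. The groups did not overlap for these 3, 1 higher and 2 lower, beside 9.00% and 10.1% of all tested clusters. Of the 6 tested 4 were positive and 2 negative. The list median was 0.04.

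Handling of other metals held 1 call. Among 11 copper genes none passed, beside 1.88% of all tested clusters. Groups did not overlap for 3 copper genes that were higher and 1 that was lower, beside 9.00% and 10.1% of all tested clusters. The copper pump ATP7A was at 0.21 (SE 0.06, limma adjusted p = 0.21) and the copper importer SLC31A1 at 0.13 (SE 0.06, limma adjusted p = 0.40), and the list median was 0.00. Among 10 iron genes 8 were tested, and SLC11A2, the iron importer DMT1, fell by 0.29 (SE 0.05, limma adjusted p = 0.048). It had signals of 6.07, 6.13 and 6.11 against 6.34, 6.42 and 6.40, and its call was lost whichever array was left out. The share of all tested clusters called lower was 1.50%. The median of the iron list was 0.00. Groups did not overlap for 3 iron genes that were higher and 3 that were lower, SLC11A2 among the latter, beside 9.00% and 10.1% of all tested clusters.

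Metallothionein genes also respond to heat shock, other stress and glucocorticoids, and genes of these responses were read beside them. Of 13 heat shock genes 11 were tested and none passed, beside 1.88% of all tested clusters. HSPB1 was at 0.16 (SE 0.06, limma adjusted p = 0.28) and BAG3 at 0.14 (SE 0.05, limma adjusted p = 0.31). The list median was 0.04, with 8 positive and 3 negative differences. Groups did not overlap for 3 that were higher and 1 that was lower, beside 9.00% and 10.1% of all tested clusters. Of 11 glucocorticoid response genes 10 were tested and none passed, and groups did not overlap for 1, which was higher. FKBP5 was at 0.14 (SE 0.05, limma adjusted p = 0.37), KLF9 at 0.09 (SE 0.06, limma adjusted p = 0.64), and the list median was 0.02. HMOX1, which metals and oxidants induce, was at 0.10 (SE 0.06, limma adjusted p = 0.55) within the iron list. At a share of 1.88% lists this short hold few or no calls, so nothing is read from their absence.

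The genes with the pattern most like that of MT2A over the 6 arrays, by Pearson correlation of log2 signals among 14690 tested genes, were RRBP1 (0.998), B4GALT1 (0.996), HK2 (0.995), CBFB (0.995) and AIFM1 (0.995). CBFB, a partner of RUNX factors, had a log2 difference of 0.48 (SE 0.06, limma adjusted p = 0.015), B4GALT1, a Golgi galactosyltransferase, one of 0.28 (SE 0.05, limma adjusted p = 0.043), and the others lay between 0.17 and 0.21. For SLC30A1 they were ZNF114 (0.997), UBA3 (0.997), ATP2C1 (0.996), DYNC1LI1 (0.994) and NABP1 (0.992). NABP1, a single-stranded DNA binding protein, was at 0.45 (SE 0.06, limma adjusted p = 0.022) and the other 4 between 0.10 and 0.16. With 6 arrays in 2 groups any gene whose difference has the same sign and is large beside its spread within groups scores high. These values therefore only describe the arrays, which the genes share. Among the members themselves, the correlation of MT2A with MTF1 was 0.92, with SLC30A1 0.88 and with MT1X 0.49, while MT1E, MT1F and MT1G correlated at 0.98 to 0.99 with one another.

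Some facts of all arrays bear on these values. The targeted RNA, CONCR, had log2 signals of 4.23, 4.49 and 4.64 after siRNA against it and of 4.71, 4.71 and 4.64 in the control group, so replicate 3 of the former was at the control level. The difference of -0.23 (SE 0.10, limma adjusted p = 0.42) did not pass and was -0.12 without CONCR siRNA replicate 1, so it does not check the labels. Epithelial and A549 markers were present, with 8 of 9 tested and none called, beside 1.88% of all tested clusters, and EPCAM lay under the filter. Of the 8, 4 differences were positive and 4 negative. Groups did not overlap for 3 of them, all lower, beside 10.1% of all tested clusters: CDH1 at -0.22, AKR1C1 at -0.22 and AKR1B10 at -0.19. Of 9 tested markers of fibroblasts, leukocytes and endothelium 3 were called higher, beside 0.384% of all tested clusters. They were PDGFRA at 0.51, CD68 at 0.50 and ESAM at 0.41 (limma adjusted p = 0.0088, 0.012 and 0.030). The mean log2 signal of the whole fibroblast list of 7 on the array was 4.31 to 4.39 with CONCR siRNA and 4.21 to 4.30 with control siRNA, that of 5 leukocyte markers 4.20 to 4.21 and 4.06 to 4.14, and that of 6 endothelial markers 3.89 to 3.98 and 3.74 to 3.94. Of the markers on the array, 2 of 7 for fibroblasts (DCN and LUM), 4 of 5 for leukocytes (all but CD68) and 3 of 6 for endothelium (PECAM1, KDR and TEK) lay under the filter. Those above it that did not pass, COL1A1, COL1A2, PDGFRB, THY1, CDH5 and VWF, differed by -0.02 to 0.09. The part of these markers in the zinc gene differences was not tested.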

How the data were processed

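Values were log2 signals per probe set from 6 arrays of A549 cells, made by RMA (background correction, quantile normalization, median-polish summary) with Affymetrix Power Tools, per the submitters' processing notes. The authors deposited them as 1 table of log2 values. Versions and the probe set build are not given in the sources used here. Arrays give no read depth, so precision is limited by their number.

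Of 70523 probe sets, 67528 were transcript clusters, and the 32540 with a log2 signal over 4 on at least 3 arrays were tested. Symbols came from the platform annotation, updated through a RefSeq gene list (GRCh38.p14) for 21497 clusters matched by Entrez ID. The brightest 1-symbol cluster stood for a gene, giving 15497 tested genes. The comparison used limma (3.58.1, under R 4.3.3; lmFit and eBayes, no trend, two-sided, Benjamini-Hochberg adjustment over all tested clusters, threshold 0.05). The method was tested on simulated data.

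Members and lists were chosen with earlier results of these data known. Named were all members, the called genes of each other list or otherwise the 2 with the smallest p, and the 5 genes most correlated with MT2A and with SLC30A1. The 10 neighbours of the locus were chosen by position. Singled out after their values were seen were BBS2, NUP93, HERPUD1, the other neighbours named, CSRP1, MT1CP, MT3, MT4, MT1HL1, MT1JP, MT1H and MT1B. So were SLC39A14, SLC30A5, SLC30A6, SLC30A9, HMOX1 and the cell type markers that were not called. The settings varied were a block for the replicate number, the filter (none, or at 6), quantile normalization, median centring, a trend with robust estimation, the mean of all clusters of a gene, and leaving out each array.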

Additional observations from a re-analysis of the deposited data

How the results depend on the processing

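The median difference of the 10 genes, 0.17, lay between 0.16 and 0.20 without each array in turn. A filter at a log2 signal of 6 removed MT1F, MT1G and MT1M, and the median of the other 7 was 0.14. Each member kept its sign under every alternative in which it was fitted, except that MT1X, which ranged from -0.014 to 0.15 without each array, was at -0.014 without CONCR siRNA replicate 1. Members called, 1 of 10, numbered 0 to 1 without each array: MT2A lost its call without CONCR siRNA replicate 1 (adjusted p = 0.054), CONCR siRNA replicate 2 (0.062) or control siRNA replicate 2 (0.062), at log2 differences of 0.53, 0.56 and 0.57 in limma. Clusters called, 613, numbered 129 to 411 without each array, and calls in the other zinc and metal lists, 3, numbered 1 to 2. With a filter at a log2 signal of 6 there were 1102 clusters called, 3 members (MT2A, SLC30A1, SLC39A10) and 6 in the other lists. Without a filter there were 238 clusters and 1 gene in the other lists. A filter changes both the number of clusters in the adjustment and the spread that limma estimates over all clusters, and their parts were not separated. With a trend and robust estimation there were 965 clusters and 6 genes in the other lists. Quantile normalization gave 749 clusters, 213 of them higher, and median centring 432, 65 of them higher, against 125 of 613 as deposited.

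Deviations of same-numbered arrays from their group means correlated at -0.27, -0.16 and -0.08, and no array correlated best with the array of its own number. With 3 arrays per group these correlations depend on one another. They cannot show whether same-numbered arrays shared a day or a culture. With the replicate number as a block limma called 51 clusters, 0 members and 0 genes of the other lists. The cause of the changes between settings was not tested. The CONCR value without 1 array was added after seeing the data. The mean of all clusters per gene gave the same member values, since each member had 1 cluster. Clusters with several symbols could not be added, as 0 of them included a member. The low signals of MT1F, MT1G and several pseudogenes limit their precision.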
